A study of Mus musculus with 16 samples.

Results

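Genes that a fat cell uses to make, store, release and take up lipid were followed through the injured mouse knee, namely Adipoq, Plin1, Fabp4, Pparg, Cebpa, Cfd, Lipe, Lpl and Cd36. They were chosen by symbol, and all 9 had a row among the 13733 genes of the table of normalized values. The 16 libraries came from knee joint cells of male mice by the labels, 4 in each of 4 groups, and none was made from the infrapatellar fat pad alone. WT D0 and WT D7 were C57BL/6J mice without injury and 7 days after a rupture of the anterior cruciate ligament by a single tibial compression. Trem2-/- D0 and Trem2-/- D7 were mice of the C57BL/6J-Trem2em2Adiuj/J line, a germline loss of the lipid-sensing receptor Trem2 in every cell, under the same 2 conditions. The methods of the study place the injury at 10 weeks of age and describe cells freed with collagenase from joint tissue that included the fat pad, passed through a strainer and cleared of red cells. The single-cell protocol to which they refer goes on to a magnetic separation on CD45, the surface protein of leukocytes, which would part leukocytes from fat, endothelial and stromal cells, and whether the step was applied to these libraries is not given in the sources used here. The sample labels instead give 16 weeks and homogenized joints and mention T1DM mice, so the age and the fraction of tissue that was sequenced cannot be settled from these sources. Trem2 itself averaged 4.56 CPM in WT D0, 16.8 in WT D7, 1.80 in Trem2-/- D0 and 4.27 in Trem2-/- D7, so reads of the gene remained in the Trem2-/- libraries at a lower level.

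An adipocyte keeps triglyceride in a single large droplet coated by perilipin, breaks it down through hormone-sensitive lipase when catecholamines call for fuel, and refills it with fatty acids that lipoprotein lipase frees from circulating particles. PPARG and C/EBPα are the transcription factors that switch this programme on during differentiation. The infrapatellar fat pad is a depot inside the knee, next to the synovium, and endothelial cells of capillaries in fat and muscle share part of the programme, because they carry fatty acids from blood to tissue with CD36 and FABP4.

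The defining adipocyte genes were close to the lower limit of detection in these libraries, while the fatty acid carriers were among the most abundant transcripts (the plot of the 9 genes by library). Plin1, the droplet coat protein, had 1 to 12 reads per library and never reached 1 CPM, the unit of the table, which scales reads to a common library size. Adipoq, which encodes adiponectin, had 6 to 60 reads and reached 1 CPM in 10 of 16 libraries. Fabp4 averaged 583 CPM and Cd36 averaged 522 CPM, at percentiles 98.7 and 98.4 of all listed genes by mean level. Between them lay Lpl at 94.6 CPM, Cebpa at 72.3, Lipe at 25.0, Pparg at 14.7 and Cfd at 4.54. Per kilobase of the longest transcript, the mean level was 650 CPM for Fabp4, 154 for Cd36, 27.5 for Cebpa, 23.0 for Lpl, 6.92 for Pparg, 6.73 for Lipe, 4.92 for Cfd, 1.16 for Adipoq and 0.121 for Plin1, beside a median of 7.26 over the genes tested. A count of 3 reads in a library, taken here as the floor, corresponded to 0.101 to 0.250 CPM. For the label of the gene set, 9 adipocyte markers were summed, namely Adipoq, Plin1, Cfd, Lipe, Lep, Cidec, Plin4, Retn and Car3. Adipoq, Plin1, Cfd and Lipe are members themselves, so the sum is no independent check of the label. Lep, the leptin gene, had no row in the table used here, and the summed level of the other 8 was 43.4 to 81.0 CPM in WT D0, 29.0 to 41.6 in WT D7, 49.4 to 111 in Trem2-/- D0 and 28.3 to 32.9 in Trem2-/- D7, of which Lipe was the largest share. Fewer cells of a type and less RNA per cell cannot be told apart in bulk libraries such as these. The 9 genes are therefore described as genes and not as a measure of adipocytes.

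**Figure D1:**
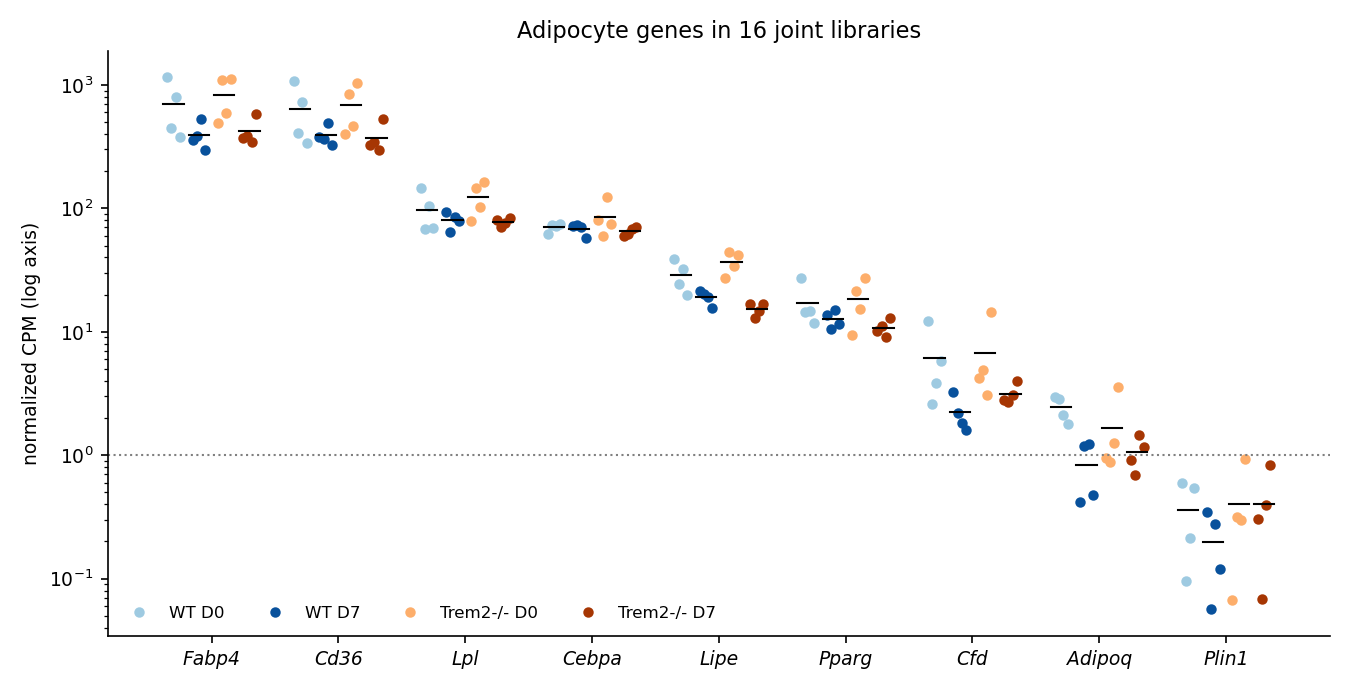
Normalized CPM (log axis) of the 9 genes, ordered by mean level, in each of the 16 libraries, with 1 point per mouse, a black bar at the group mean and a dotted line at 1 CPM. Fabp4 and Cd36 lie between 296 and 1153 CPM in every library, and Plin1 lies below 1 CPM in every library.

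The depth that bears on the low genes ranged from 11567073 to 32867818 recovered reads per library, with a median of 16399898. Markers of other cell types moved strongly with injury. The summed level of 7 of 7 fibroblast markers was 6117 to 49541 CPM in WT D0 and 74327 to 114421 in WT D7, and 5151 to 11067 in Trem2-/- D0 and 98246 to 138788 in Trem2-/- D7. For 6 of 6 leukocyte markers the ranges were 2678 to 5222, 1514 to 3335, 3322 to 5728 and 1197 to 1501 CPM in the same order, and for 9 of 9 skeletal muscle markers 206 to 793, 151 to 376, 352 to 1009 and 166 to 248 CPM. No fibroblast, leukocyte or muscle marker was at 0 in any library. The part of these shifts in the results below was not tested, except for the covariate fits that are named.

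The start-site regions of 4 genes are shown, because 2 of them, Adipoq and Plin1, are the defining genes near the floor and the others, Cd36 and Pparg, are a carrier at the top of the range and the master regulator. Each run is the 250 bases upstream of a RefSeq start site in GRCm38.p6, 5′ to 3′ on the gene's strand. Capitals mark a PPAR half-site (AGGTCA), a C/EBP-type motif (TTNNGCAA) or a TATA box (TATAAA), searched on both strands. The Adipoq run covers chr16:23146286-23146535 on the plus strand, Plin1 chr7:79732777-79733026 on the minus strand, Cd36 chr5:17835897-17836146 on the minus strand, and Pparg, at the downstream of its 3 listed starts, chr6:115421816-115422065 on the plus strand.
Adipoq: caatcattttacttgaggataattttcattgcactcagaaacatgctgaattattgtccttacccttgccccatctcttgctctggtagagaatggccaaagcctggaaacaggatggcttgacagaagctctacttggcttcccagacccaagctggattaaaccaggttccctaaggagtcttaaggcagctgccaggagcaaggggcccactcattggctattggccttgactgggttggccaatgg
Plin1: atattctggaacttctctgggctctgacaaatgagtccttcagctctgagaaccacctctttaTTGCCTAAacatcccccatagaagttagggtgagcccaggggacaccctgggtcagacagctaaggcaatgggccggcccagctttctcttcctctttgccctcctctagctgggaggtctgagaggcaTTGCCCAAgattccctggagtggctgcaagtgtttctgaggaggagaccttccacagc
Cd36: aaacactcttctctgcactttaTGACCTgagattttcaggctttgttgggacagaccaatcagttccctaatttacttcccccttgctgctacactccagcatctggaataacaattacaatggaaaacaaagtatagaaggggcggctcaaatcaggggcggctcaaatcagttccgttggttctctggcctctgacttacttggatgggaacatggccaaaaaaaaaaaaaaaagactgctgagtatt
Pparg: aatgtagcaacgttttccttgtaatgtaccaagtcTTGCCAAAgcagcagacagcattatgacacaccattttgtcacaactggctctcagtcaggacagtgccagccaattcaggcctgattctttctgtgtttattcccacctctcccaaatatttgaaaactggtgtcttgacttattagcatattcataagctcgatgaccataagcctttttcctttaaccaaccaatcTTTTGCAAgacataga
The Pparg and Plin1 windows each held 2 matches to the C/EBP-type motif, which 9.56% of the 32851 windows of this length held, and Cd36 held 1 half-site, which 14.0% held. A TATA box stood in 12.4% of windows and in none of these 4, and the Adipoq window held none of the 3 motifs. The upstream Pparg windows, which are not shown, each held 1 half-site, at -28 and at -9 from their start sites. The window with the half-site at -9 also held a TATA box, at -29. Among the 10 windows listed for 7 of the 9 genes, none held 2 half-sites spaced by 1 base, the form that PPARG binds, a pattern that contains the half-site and stood in 0.0335% of windows. These matches are descriptions of letters and not evidence of binding.

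After injury in WT mice, Adipoq, Cfd and Lipe were called lower and the fatty acid carriers Fabp4 and Cd36 were not called, with a negative estimate for each of the 8 members tested (the plot of changes). A gene was called where limma gave an unadjusted p under 0.05 and a change of more than 0.32 in either direction on the scale of log2(CPM + 1), and p-values adjusted by Benjamini-Hochberg over the 13173 genes tested are given beside it. Of the 9 genes 8 passed the filter of at least 1 CPM in 4 libraries, and Adipoq would have passed it through WT D0 alone. In WT, 3 of the 8 were called lower, Adipoq, Cfd and Lipe, and 0 were called higher, where 18.2% of all genes tested were called lower and 19.3% higher. With the adjusted p, 2 of the 8 were called lower, beside 12.6% of all genes. The median log2 fold change was -0.04 over all genes.

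Adipoq, the hormone of mature fat cells (chr16:23146536-23158028, mm10), stood at 2.99, 2.87, 2.13 and 1.80 CPM in the 4 WT D0 libraries and at 0.418, 1.19, 1.24 and 0.475 in WT D7. The WT groups did not overlap, as was the case for 22.2% of all genes, and Adipoq was the 1 member of which this held. The log2 fold change was -0.93 (SE 0.26, unadjusted p = 0.00251, adjusted p = 0.0164), which is a 1.90-fold decrease on that scale. In Trem2-/- D0 it stood at 0.941, 0.884, 1.253 and 3.55 CPM and in Trem2-/- D7 at 0.907, 0.689, 1.46 and 1.17, and these groups overlapped, with 1 D0 library far above the other 3. The change there was -0.28 (SE 0.26, adjusted p = 0.370), and the difference between the genotypes was 0.65 (95% interval -0.13 to 1.42, unadjusted p = 0.0958). Without Trem2-/- D0 replicate 4 the difference was called, at 0.94. These values rest on few reads, and the WT change was -1.56 with a pseudocount of 0.1 and -0.35 with a pseudocount of 5, past the threshold in both. Of its receptors, Adipor1 was called lower in both genotypes (-0.35, adjusted p = 0.0592 in WT, and -0.69, adjusted p = 0.000668 in Trem2-/-). Cdh13, the T-cadherin that holds adiponectin at the cell surface, was called higher in both (0.62 and 0.85), whereas Adipor2 was called in neither.

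Cfd encodes adipsin, the protease factor D that starts the alternative complement pathway (chr10:79890853-79892655). Its level was 12.1, 2.58, 3.83 and 5.77 CPM in WT D0 and 3.27, 2.21, 1.83 and 1.60 in WT D7. In Trem2-/- D0 it was 4.23, 4.93, 3.10 and 14.5 CPM and in Trem2-/- D7 2.82, 2.69, 3.08 and 4.00. In each genotype 1 uninjured library lay well above the rest, and the ranges of D0 and D7 overlapped. Cfd fell by 0.98 on the log2 scale in WT (SE 0.39, adjusted p = 0.0703), and the estimate in Trem2-/- was -0.69 (SE 0.39, adjusted p = 0.146). The call of Cfd in WT was lost without any 1 of 3 libraries, with -0.63 without WT D0 replicate 1, -0.93 without WT D7 replicate 3 and -0.89 without WT D7 replicate 4. In the first and the last of these fits Adipoq and Lipe were the 2 members called, and in the other Fabp4 was called with them. Without WT D0 replicate 4, Fabp4 and Cd36 were called as well and the count was 5. The share of all genes called in these fits is not given here.

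Lipe, the hormone-sensitive lipase that splits diacylglycerol from the droplet (chr7:25379527-25398710), was the 1 member called lower in both genotypes in the fit reported. WT D0 libraries held 38.8, 24.6, 32.2 and 19.8 CPM and WT D7 libraries 21.2, 20.1, 19.0 and 15.6, and 1 D0 library lay inside the D7 range. Trem2-/- D0 libraries held 27.3, 43.9, 34.4 and 42.0 CPM and Trem2-/- D7 libraries 16.7, 12.9, 14.7 and 16.8, so that all 4 injured mice were below all 4 uninjured mice. The log2 fold change was -0.55 in WT (SE 0.19, adjusted p = 0.0437) and -1.21 in Trem2-/- (SE 0.19, adjusted p = 0.000134). The difference between these changes was -0.66 (95% interval -1.23 to -0.09, unadjusted p = 0.0269, adjusted p = 0.579), and it was the 1 of 8 members called there, where 7.79% of all genes were called. That call was lost without any 1 of 5 libraries, WT D0 replicate 4, WT D7 replicate 1, Trem2-/- D0 replicates 2 and 4 and Trem2-/- D7 replicate 2, with values from -0.61 to -0.50. Of the exon bases of Lipe 15.6% overlap 4732471J01Rik, which is read from the other strand. Whether strand was used in counting is not given in the sources used here, so reads of the pair may be shared.

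Lipe works on the droplet with the lipase ATGL, encoded by Pnpla2, its activator Abhd5 and the coat protein Plin1. Pnpla2 fell by 0.67 in WT (SE 0.12, adjusted p = 0.00157) and by 0.95 in Trem2-/- (adjusted p = 2.7e-05), from 103 ± 15.5 to 63.9 ± 3.39 CPM and from 111 ± 16.0 to 56.7 ± 3.60 CPM (mean ± SD, n = 4). Abhd5 was called lower in both, at -0.36 and -0.39, with adjusted p of 0.0988 and 0.0534. Plin1 (chr7:79720218-79732903) was below the filter, and its 16 values ran from 0.0566 to 0.927 CPM. By group it had 26 reads in all in WT D0, 16 in WT D7, 23 in Trem2-/- D0 and 27 in Trem2-/- D7, so that a change in it was not detectable at this depth. Without the filter its log2 fold change was -0.17 in WT and 0.0042 in Trem2-/-, called in neither.

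In Trem2-/- mice the fatty acid carriers and Pparg were called lower together with Lipe. In all, 5 of the 8 members tested were called lower and 0 higher, where 27.9% of all genes tested were called lower and 26.5% higher. With the adjusted p, 3 of the 8 were called lower, Fabp4, Lpl and Lipe, beside 27.2% of all genes. Lipe was the 1 of 8 whose groups did not overlap, beside 52.4% of all genes. The difference of the changes between the genotypes was not called for Fabp4 (-0.18), Cd36 (-0.23) or Lpl (-0.39). By limma the unadjusted p of these differences was 0.713, 0.650 and 0.267 in that order. The count of 5 depended on single mice. It was 1 without Trem2-/- D0 replicate 4, which left Lipe. Without Trem2-/- D0 replicate 2 it was 2, Lipe and Cebpa (-0.47), of which Cebpa is not among the 5. The count was 2 without Trem2-/- D7 replicate 2, 2 without Trem2-/- D7 replicate 3 and 3 without Trem2-/- D7 replicate 1. These counts with a mouse left out have no share of all genes beside them.

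**Figure D2:**
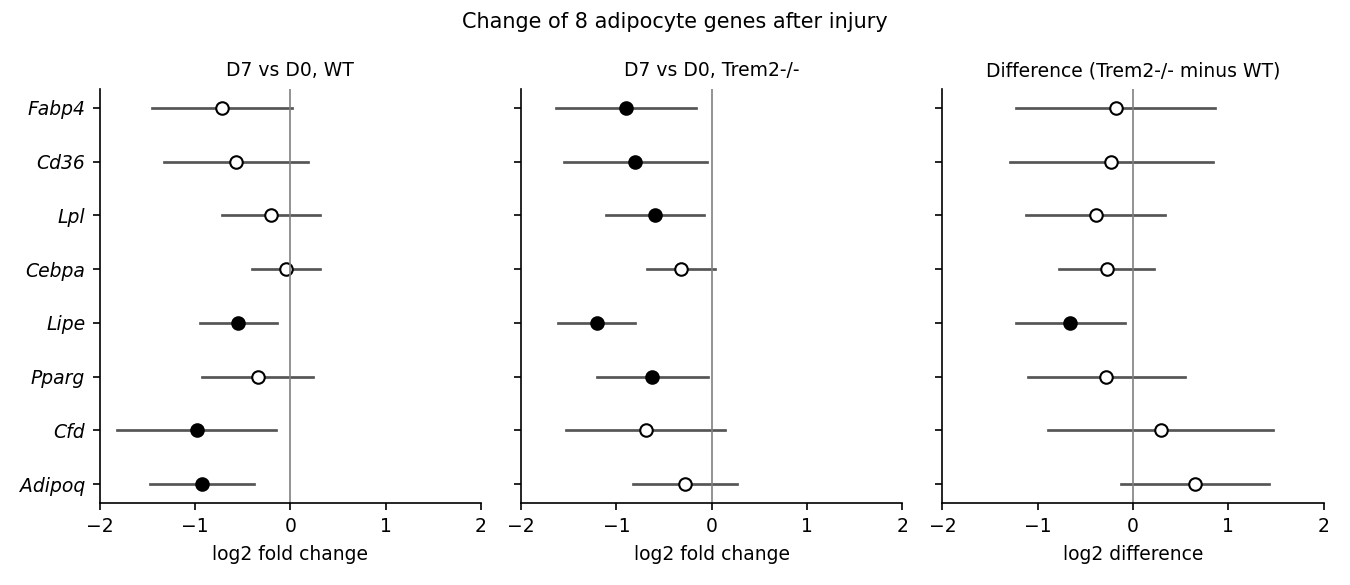
Log2 fold change on log2(CPM + 1) of the 8 genes that passed the filter, D7 against D0 in WT (left) and Trem2-/- (middle), and the difference of these changes (right). Points are limma estimates with 95% intervals, filled where called (unadjusted p under 0.05 and a change over 0.32). All 8 estimates lie below 0 in both genotypes, with 3 filled points in WT, 5 in Trem2-/- and 1, Lipe, in the difference.

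Fabp4, the cytosolic fatty acid chaperone (chr3:10204088-10208576), measured 1153, 446, 804 and 379 CPM in WT D0 and 356, 386, 526 and 298 in WT D7. In Trem2-/- D0 it measured 489, 1095, 590 and 1114 CPM and in Trem2-/- D7 374, 387, 343 and 586. The uninjured libraries of both genotypes spread over more than the difference between the days, and the D0 and D7 ranges overlapped. The log2 fold change was -0.72 in WT (SE 0.35, adjusted p = 0.126) and -0.90 in Trem2-/- (SE 0.35, adjusted p = 0.0395). The WT result depended on the method, since on recovered reads Fabp4 was called lower in WT by edgeR (-0.83, adjusted p = 0.0859) and by voom with limma (-0.75, adjusted p = 0.105). It was called there also without WT D0 replicate 2, WT D0 replicate 4 or WT D7 replicate 3. Its relative Fabp5 was called in neither genotype.

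Cd36, the scavenger receptor that takes up long-chain fatty acids (chr5:17781690-17888801), followed Fabp4 mouse by mouse. It measured 1078, 409, 721 and 338 CPM in WT D0 and 381, 364, 488 and 328 in WT D7, and 399, 848, 467 and 1039 in Trem2-/- D0 and 326, 347, 296 and 532 in Trem2-/- D7. Its log2 fold change was -0.57 in WT (SE 0.35, adjusted p = 0.230) and -0.80 in Trem2-/- (SE 0.35, adjusted p = 0.0684). The same mice were high for both genes, WT D0 replicates 1 and 3 and Trem2-/- D0 replicates 2 and 4.

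Lpl, the lipase that frees fatty acids from lipoproteins at the capillary wall (chr8:68880491-68907448), measured 145, 67.9, 105 and 68.7 CPM in WT D0 and 93.9, 64.9, 84.6 and 78.5 in WT D7. In Trem2-/- D0 it measured 79.0, 147, 103 and 164 CPM and in Trem2-/- D7 80.2, 71.3, 76.5 and 83.7. The groups overlapped in both genotypes, and the change was -0.20 in WT (SE 0.24, adjusted p = 0.541) and -0.60 in Trem2-/- (SE 0.24, adjusted p = 0.0484). The partners of Lpl did not move with it as a group. Gpihbp1, the endothelial anchor that carries Lpl across the capillary wall, was called lower in both genotypes (-0.94, adjusted p = 0.0731, and -1.24, adjusted p = 0.0127). Angptl4, which inactivates Lpl, was called higher in both (0.72, adjusted p = 0.0730, and 1.35, adjusted p = 0.00137), and so was Lmf1, its maturation factor (0.77, adjusted p = 0.00423, and 1.09, adjusted p = 9.02e-05).

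Of the transcription factors, Pparg was called lower in Trem2-/- and not in WT, and Cebpa in neither genotype in the fit reported. Pparg (chr6:115360951-115490399) measured 27.3, 14.6, 14.7 and 11.7 CPM in WT D0 and 13.7, 10.5, 14.99 and 11.5 in WT D7, and 9.48, 21.2, 15.3 and 27.2 in Trem2-/- D0 and 10.2, 11.1, 9.07 and 12.8 in Trem2-/- D7. Its groups overlapped, with a change of -0.34 in WT (SE 0.27, adjusted p = 0.351) and -0.62 in Trem2-/- (SE 0.27, adjusted p = 0.0669). The difference between these changes was -0.28 (SE 0.39, limma, unadjusted p = 0.481) and was not called. The call of Pparg in Trem2-/- was lost without D0 replicate 2 or 4, and without D7 replicate 1, 2 or 3. Cebpa (chr7:35119293-35121928) measured 62.5, 72.9, 71.9 and 74.1 CPM in WT D0 and 71.6, 73.5, 70.8 and 57.4 in WT D7, and 80.9, 59.6, 125 and 74.9 in Trem2-/- D0 and 59.9, 62.2, 68.6 and 71.0 in Trem2-/- D7. Apart from the library at 125, all Cebpa values lay between 57.4 and 80.9 CPM, and the changes were -0.05 (95% interval -0.40 to 0.31) and -0.32 (95% interval -0.68 to 0.03). Rxra, the receptor with which PPARG pairs, was called higher in both genotypes (0.70, adjusted p = 0.00471, and 0.68, adjusted p = 0.00169). Cebpb, which acts upstream of Cebpa early in differentiation, was called lower in both (-1.06, adjusted p = 0.00833, and -1.39, adjusted p = 0.000408).

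Loss of Trem2 itself left no member called. At D7, 0 of 8 were called between Trem2-/- and WT, beside 5.72% of all genes, with 0 at an unadjusted p under 0.05 by limma and 0 called by edgeR. At D0, 0 of 8 were called, beside 2.15% of all genes, again with 0 at an unadjusted p under 0.05 and 0 called by edgeR. The intervals were wide. At D7 the 95% interval of the log2 difference ran from -0.63 to 0.84 for Fabp4, from -0.70 to 0.11 for Lipe and from -0.36 to 0.73 for Adipoq. Differences inside these intervals remain possible with 4 mice per group. At D0 the estimate furthest from 0 was Adipoq at -0.46 (unadjusted p = 0.0930), followed by Lipe at 0.36 (unadjusted p = 0.0750) and Lpl at 0.36 (unadjusted p = 0.159). At D0 the count was 2 without WT D0 replicate 1, 2 without Trem2-/- D0 replicate 1, 1 without Trem2-/- D0 replicate 2 and 1 without Trem2-/- D0 replicate 4. No share of all genes is given for these fits. The comparisons of the genotypes share their D0 or D7 libraries with the comparisons of the days and are not independent of them.

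Other genes of the adipocyte programme went in both directions, list by list (the plot of calls by list). Of 76 further genes in 7 lists, 70 had a row, Cavin1 under its older symbol Ptrf, and 65 passed the filter. In WT 20 were called higher (30.8%) and 17 lower (26.2%), beside 19.3% and 18.2% of all genes tested, and in Trem2-/- 23 were called higher (35.4%) and 27 lower (41.5%), beside 26.5% and 27.9%. Between the genotypes 5 were called at D7 (7.69%) and 2 at D0 (3.08%), and 5 in the difference of the changes (7.69%), near the 5.72%, 2.15% and 7.79% of all genes. The counts of the single lists, of 3 to 14 genes each, stand against the same shares of all genes.

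Of the genes of the lipid droplet and lipolysis, 7 of 9 were called lower (77.8%, beside 27.9% of all genes) and 1 higher in Trem2-/-. In WT 2 of 9 (22.2%, beside 18.2%) were called lower and 1 higher. In each genotype 7 of the 9 estimates were negative. The difference of the changes was called for 1 of 9 (11.1%, beside 7.79% of all genes) and passed the adjusted p for 0. The largest decreases in Trem2-/- were those of Aqp7, a glycerol channel (-1.34, adjusted p = 0.0186), the droplet coat Plin2 (-1.32, adjusted p = 0.000566) and Plin4 (-1.24, adjusted p = 0.00426). Fitm2, which helps droplets form, went the other way in both genotypes (0.95, adjusted p = 0.00132 in WT, and 1.247, adjusted p = 3.43e-05 in Trem2-/-). Among genes of fatty acid uptake, Slc27a4, Acsl1 and Gpihbp1 were called lower in both genotypes (30.0%, beside 18.2% and 27.9% of all genes) and 4 of 10 were called higher in each (40.0%, beside 19.3% and 26.5%), among them the lipoprotein receptor Vldlr (1.40 in WT, adjusted p = 0.00402, and 1.37 in Trem2-/-, adjusted p = 0.00124).

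Synthesis was divided. Dgat1 and Dgat2, which add the last fatty acid to triglyceride, fell by 0.64 and 1.02 in WT and by 1.61 and 1.87 in Trem2-/-, and Thrsp, a lipogenic factor, fell by 0.84 and 1.88. Fasn, the fatty acid synthase, rose by 1.13 and 1.20, Scd2 by 1.21 and 0.93 and Me1, which supplies NADPH, by 1.33 and 1.65. The counts were 4 of 14 higher (28.6%) and 3 lower (21.4%) in WT and 5 higher and 5 lower (35.7% each) in Trem2-/-, within about 10 percentage points of the shares of all genes. Of the hormone list, Rbp4, the retinol carrier, rose by 1.74 in WT and 2.53 in Trem2-/-. In that list 3 of 10 genes were called higher in each genotype (30.0%), and 3 were called lower in WT (30.0%) and 5 of 10 in Trem2-/- (beside 27.9% of all genes).

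Among the adipogenic factors, 3 of 9 were called higher and 3 lower in WT (33.3% each) and 4 higher (44.4%) and 2 lower (22.2%) in Trem2-/-. Zfp423, which marks committed preadipocytes, rose by 1.02 in both genotypes, and Klf15 fell by 0.90 and 1.02. Of the thermogenic list 3 of 5 genes were tested, 0 were called in WT and 2 lower in Trem2-/-, Cox8b at -0.88 and Prdm16 at -0.80. Ucp1, the defining gene of brown fat, averaged 0.360 to 0.616 CPM in the 4 groups and was not tested.

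Adipose progenitor genes were the list with most calls higher, 5 of 10 in WT (beside 19.3% of all genes) and 6 of 10 in Trem2-/- (60.0%, beside 26.5%). The 3 called lower in each genotype (30.0%) stood beside 18.2% and 27.9% of all genes. Wisp2 rose by 2.07 in WT (adjusted p = 0.00302) and 3.72 in Trem2-/- (adjusted p = 1.63e-05), and Clec11a by 1.55 and 2.78. Dlk1 was called higher in both, by 1.72 and 1.79, and so was Pdgfra, a receptor of mesenchymal progenitors, by 1.14 and 1.80. Pi16 and Dpp4, markers of interstitial progenitors, were called lower, by 0.43 and 0.82 in WT and by 1.56 and 1.22 in Trem2-/-. Most of these genes are also expressed by fibroblasts outside fat, whose markers rose with injury in the same libraries, and that part was not tested.

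**Figure D3:**
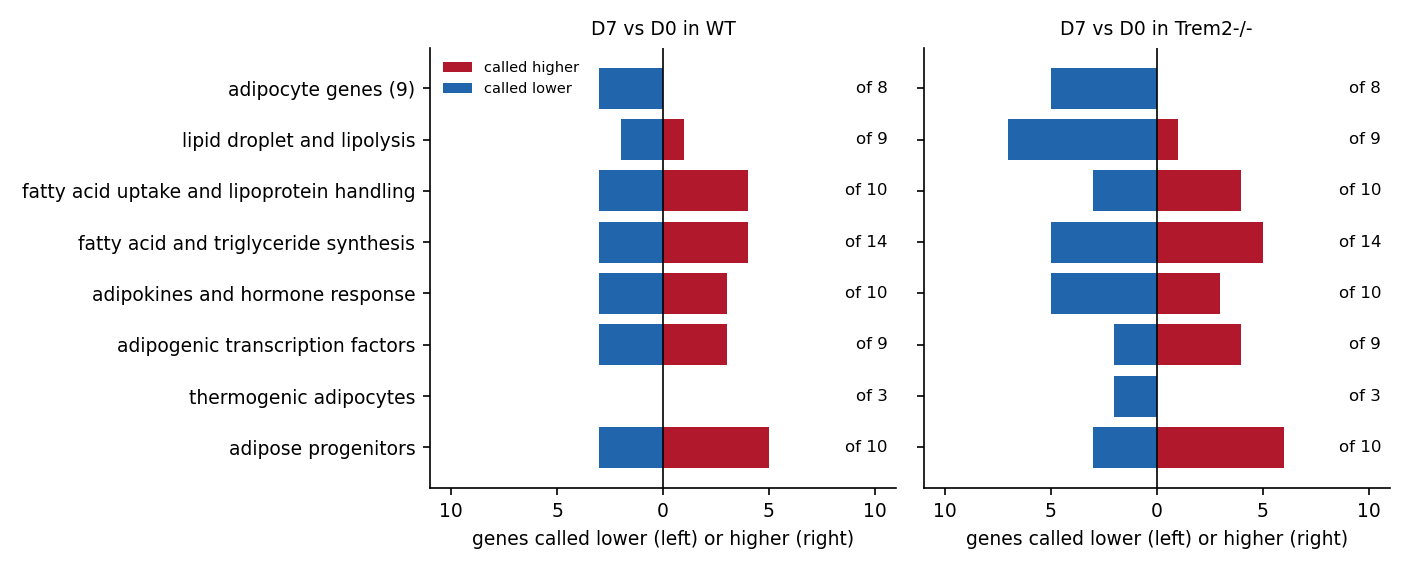
Number of genes called lower (blue, left) or higher (red, right) at D7 against D0, in WT and Trem2-/-, for the 9 adipocyte genes and the 7 lists, with the number tested at the right. The 9 genes have 3 calls lower in WT and 5 in Trem2-/- with 0 higher, and lipid droplet genes have 7 of 9 lower in Trem2-/-, while other lists hold calls on both sides.

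The members fell into sets when mice were compared within their groups, after the group mean was removed from each value on the log2(CPM + 1) scale. Fabp4 and Cd36 rose and fell together over the 16 libraries (Pearson r = 0.99, Spearman rho = 0.98), with a permutation p of 2e-05 for both measures, adjusted over 99 relations to 0.00099 and 0.00198. Without the 2 libraries farthest from the median of Cd36, r was 0.99, and it was 0.99 at D0 and 0.96 at D7. Pparg followed Cd36 (r = 0.90, rho = 0.90, permutation p adjusted to 0.00099 and 0.00198, r = 0.82 without the 2 farthest, 0.91 at D0 and 0.85 at D7). Lpl and Lipe joined this set at D0, with r to Fabp4 of 0.98 and 0.97, but at D7 r was 0.24 and 0.45 over 8 libraries, and the pooled relations of 0.87 and 0.87 therefore rest on the uninjured mice.

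Plin1 and Cfd formed a looser pair (r = 0.78, rho = 0.75, permutation p adjusted to 0.0136 and 0.0423, r = 0.67 without the 2 farthest, 0.88 at D0 and 0.66 at D7). Plin1 did not pass the filter and had 1 to 12 reads per library, with some libraries below the floor. The pair therefore rests on few reads, and the part of counting error and depth in it was not tested. Adipoq passed the adjusted threshold with no other member, and its highest r was 0.50, to Cfd and to Pparg. Cebpa had r between -0.41 and 0.08 to the other members over all libraries, but the days had opposite signs, with r from -0.56 to -0.07 at D0 and from 0.06 to 0.68 at D7 over 8 libraries each.

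**Figure D4:**
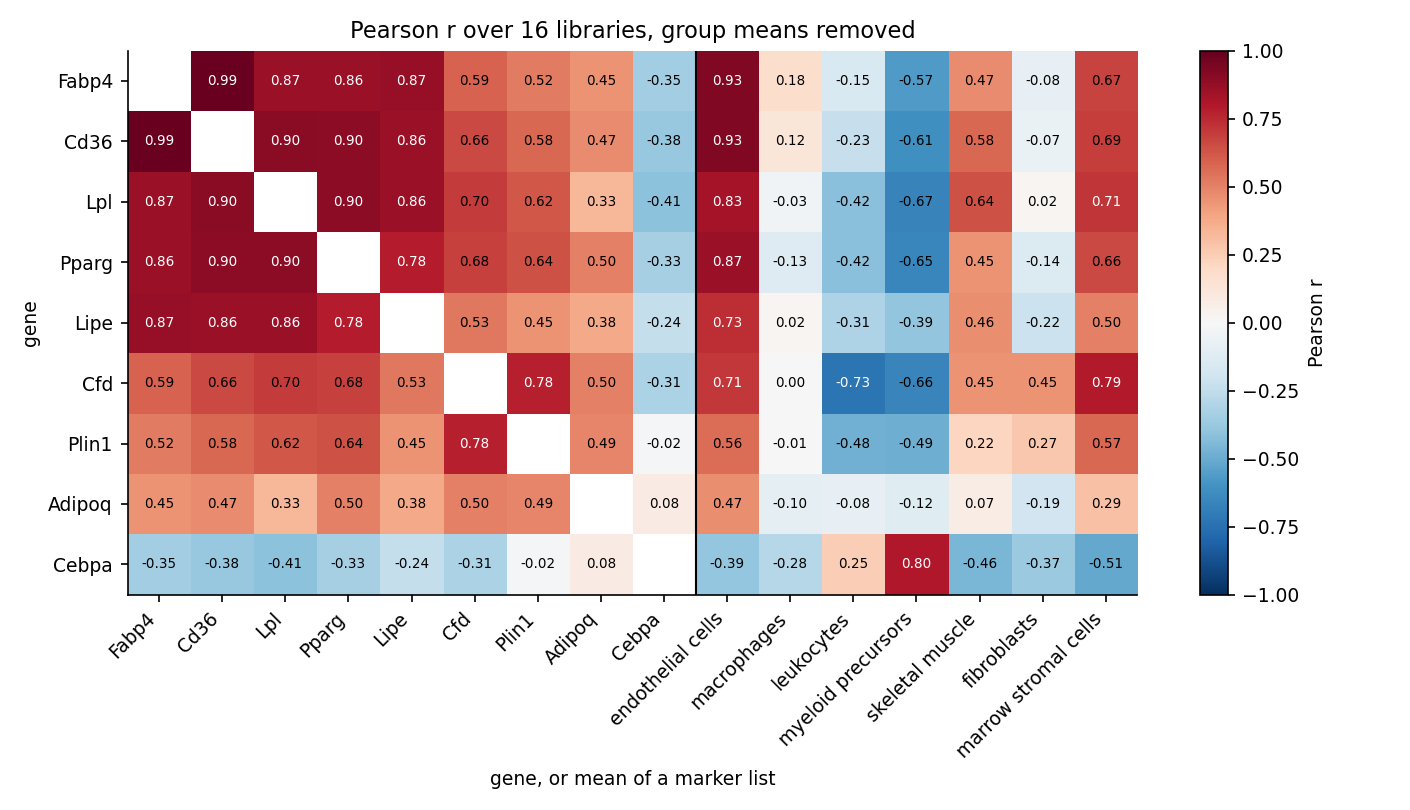
Pearson r over 16 libraries after removal of group means, on the log2(CPM + 1) scale, between the 9 genes (left of the line) and between each gene and the mean of 7 marker lists (right of the line). Fabp4, Cd36, Lpl, Pparg and Lipe form a block of r from 0.78 to 0.99, Fabp4 and Cd36 reach 0.93 with endothelial markers, and Cebpa reaches 0.80 with myeloid precursor markers.

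Beside other cell types, the carriers followed endothelial markers. The 10 of 10 endothelial markers listed (Pecam1, Cdh5, Kdr, Emcn, Tek, Tie1, Eng, Cldn5, Vwf and Robo4) summed to 1735 to 4683 CPM in WT D0, 2298 to 3420 in WT D7, 1987 to 4117 in Trem2-/- D0 and 2747 to 3723 in Trem2-/- D7, with none at 0 in any library. Pecam1 itself averaged 646 ± 283, 655 ± 132, 667 ± 199 and 731 ± 105 CPM (SD, n = 4) in the 4 groups in this order, and was called in neither genotype after injury. Within groups Fabp4 had r = 0.93 and rho = 0.95 with the mean of these markers (permutation p adjusted to 0.00511 and 0.00693, r = 0.90 without the 2 farthest, 0.95 at D0 and 0.86 at D7). Cd36 had r = 0.93 and rho = 0.92 (permutation p adjusted to 0.00511 and 0.0119, r = 0.88 without the 2 farthest, 0.95 at D0 and 0.80 at D7), and Pparg had r = 0.87 and rho = 0.81 (permutation p adjusted to 0.0159 and 0.0452, r = 0.75 without the 2 farthest, 0.91 at D0 and 0.57 at D7). For Adipoq r was 0.47 and rho 0.39 (permutation p adjusted to 0.256 and 0.335). Lpl had r = 0.83 with the endothelial markers, but -0.18 at D7.

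With the mean endothelial marker level as a covariate, an alternative chosen after the data were seen, the standard errors of the carriers were smaller and 6 of 8 members were called lower in each genotype. Fabp4 was then at -0.74 in WT (SE 0.15, adjusted p = 0.00271) and -1.04 in Trem2-/- (SE 0.15), and Cd36 at -0.60 (SE 0.15, adjusted p = 0.00879) and -0.94 (SE 0.15). Adipoq changed little, at -0.94 and -0.33. Cebpa was at -0.040 and -0.30, called in neither. With the mean leukocyte marker level as the covariate, also chosen after the data were seen, 3 members were called in WT and 4 in Trem2-/-, where Fabp4 (-1.28, SE 0.76) and Cd36 (-1.41, SE 0.76) lost their calls. By the adjusted p no member passed in Trem2-/- (Cfd 0.113, Lipe 0.124) and Cfd alone in WT (0.0354, with 0.170 for Adipoq and 0.147 for Lipe). Cfd was then at -2.02 in WT and -2.81 in Trem2-/-. Leukocyte markers themselves fell with injury, so this covariate overlaps with the days. The share of all genes called with either covariate is not given here, so these counts of members have no background beside them.

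**Figure D5:**
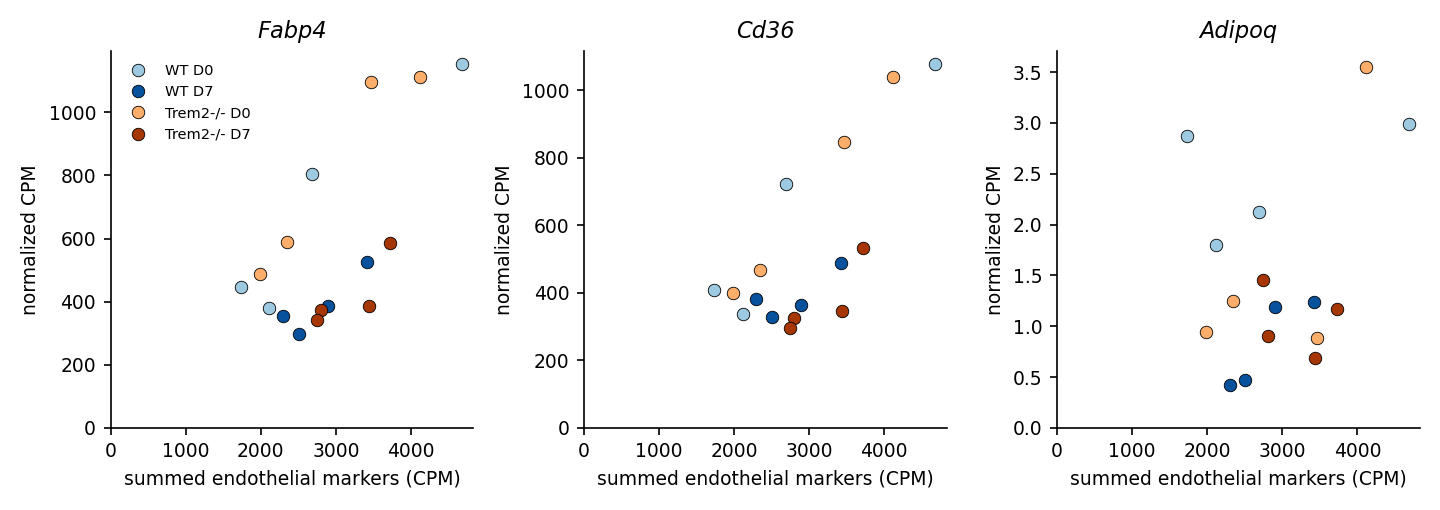
Normalized CPM of Fabp4, Cd36 and Adipoq against the summed CPM of 10 endothelial markers, with 1 point per library, coloured by group, on linear axes from 0. Fabp4 and Cd36 climb with the markers, and Adipoq is scattered between 0.418 and 3.55 CPM.

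Other cell types went with other members. Cebpa, which is also a factor of granulocyte development, had r = 0.80 and rho = 0.63 with 4 of 4 myeloid precursor markers (Elane, Mpo, Prtn3 and Ctsg, permutation p adjusted to 0.0129 and 0.101, r = 0.76 without the 2 farthest, 0.80 at D0 and 0.80 at D7). These markers summed to 591 to 2413 CPM in WT D0, 225 to 530 in WT D7, 844 to 3934 in Trem2-/- D0 and 252 to 346 in Trem2-/- D7, with none at 0. Cfd ran against leukocyte markers (r = -0.73, rho = -0.78, permutation p adjusted to 0.0290 and 0.0452, r = -0.81 without the 2 farthest, -0.89 at D0 and -0.52 at D7). With 10 of 10 markers of marrow stromal cells that express adipogenic genes, Cfd had r = 0.79 and rho = 0.62 (permutation p adjusted to 0.0492 and 0.253, r = 0.62 without the 2 farthest), but r was 0.88 at D0 and -0.57 at D7. Those markers summed to 1822 to 3619 CPM in WT D0, 2162 to 2557 in WT D7, 1959 to 2695 in Trem2-/- D0 and 2237 to 2817 in Trem2-/- D7. None of the 9 genes passed with macrophage, skeletal muscle or fibroblast markers by the adjusted p over all libraries, but the days differed. With fibroblast markers r at D7 was -0.85 for Fabp4, -0.86 for Cd36 and -0.89 for Pparg, beside -0.012, -0.0075 and -0.090 at D0. Fabp4 had r = 0.026 with macrophage markers at D0 and 0.76 at D7. With muscle markers Cd36 had r = 0.82 at D0 and -0.16 at D7. No p-value was computed by day. The part of any of these cell types in a member's change was not tested beyond the covariate fits.

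The genes whose pattern over the 16 libraries was most like that of Adipoq were Pelo (r = 0.89, and 0.77 with group means removed), Gstt2 (0.81 and 0.64), Nipsnap1 (0.81 and 0.62), Cd247 (0.80 and 0.71), Hsd17b10 (0.80 and 0.58), Ppp1cc (0.78 and 0.63), Rrm2b (0.77 and 0.80), Cage1 (0.77 and 0.70), Rph3al (0.77 and 0.61) and Ybx1 (0.77 and 0.55), out of 13172 genes. No adipocyte gene of the lists was among these 10. For Fabp4, looked up after its level was seen, the 10 were Cd36 (0.98 and 0.99), Gpihbp1 (0.97 and 0.95), Icam2 (0.97 and 0.96), C1qtnf9 (0.97 and 0.97), Cyp4b1 (0.96 and 0.93), Sdpr (0.96 and 0.94), Mgll (0.95 and 0.94), Bcam (0.95 and 0.92), Gja5 (0.95 and 0.94) and Cd300lg (0.95 and 0.96). Gpihbp1, Icam2, Gja5 and Cd300lg are known from endothelial cells. Gpihbp1 is also in the fatty acid uptake list, and Mgll, the monoglyceride lipase, is in the lipolysis list. C1qtnf9, Cyp4b1, Sdpr and Bcam were not assigned to a cell type here. These values are descriptions, since the libraries share depth, day and genotype.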

How the data were processed

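RNA from the knees of 16 mice, 4 per genotype and day, was sequenced by the authors. Their alignment used STAR and mm10, their counting featureCounts, and their scaling the TMM method of edgeR, with versions not given in the sources used here. The deposited values are a normalized signal (CPM on TMM-scaled library sizes) for 13733 genes. All values were whole multiples of what 1 read is worth, within 0.01 reads, so reads per library (11567073 to 32867818) were recovered. 1 gene listed more than once, with identical rows, was kept once. The paper names a stranded kit and the labels an unstranded one.

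The 13173 genes that reached 1 CPM in 4 or more libraries were tested with limma 3.58.1 (lmFit, eBayes with trend, R 4.3.3) on log2(CPM + 1), with 4 groups in 1 fit and Benjamini-Hochberg adjustment over all genes. A call needed an unadjusted p under 0.05 and a log2 change beyond 0.32, as in the study's own rule. Alternatives were other pseudocounts, no filter, median-of-ratios rescaling, eBayes without trend, only the groups compared, a replicate block, each mouse left out, and edgeR 4.0.16 and voom on recovered reads. The fit was tested on data simulated with the same setting of the spread between mice for all genes. The outcome is not given here, so no conclusion rests on it. P-values measure the spread between mice.

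Relations between genes used residuals from group means, with 100000 permutations within groups and adjustment over 99 relations. Named genes were all members, the 3 called genes with the largest change in each direction in each list, direct partners of members, and the 10 genes with the highest r to Adipoq. 1 gene that this rule names is not reported here. The members and lists were chosen with earlier results of these data known. Positions are from GENCODE M21 and lengths are the longest transcript of its basic set. Start-site sequences are from RefSeq (GRCm38.p6).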

Additional observations from a re-analysis of the deposited data

Results flagged for a closer look

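In Trem2-/- D0, replicate 4 stood apart for both secreted adipocyte products. It held 3.55 CPM of Adipoq, against 0.884 to 1.253 in the other 3 mice, a gap of 0.862 of the range of the group, and 14.5 CPM of Cfd, against 3.10 to 4.93, a gap of 0.840 of the range. For Cebpa, WT D7 replicate 4 was low, at 57.4 CPM against 70.8 to 73.5, a gap of 0.830 of the range. Each gap is past Dixon's limit for 4 samples. Chance gives about 1 such gap in 20 groups, which is 1.8 among the 36 groups tested, and 3 were found.

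The change of Lipe after injury differed between the genotypes by -0.66 on the log2 scale (Trem2-/- minus WT, limma, unadjusted p = 0.0269), and the adjusted p of 0.579 did not pass.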

How the results depend on the processing

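Depth limits Plin1 and Adipoq, the other members having at least 27 reads in every library. In each of the 5 comparisons the members called were as many under both pseudocounts, no filter, rescaling and eBayes without trend as in the fit reported, and scaling moved the median of all genes by under 0.1. On recovered reads, edgeR called 4 members in WT, Fabp4 being the addition, and 7 in Trem2-/-, with Cfd and Cebpa added, and voom 4 and 5, with Fabp4 added in WT. The other adipocyte genes called between genotypes were 11 at D7 and 1 at D0 with only the groups compared, and 4 at D0 by edgeR. Why these counts shifted was not examined, and the cause was not tested. The share of all genes called in these alternatives is not given here.

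Both covariates were chosen after the data were seen, and the counts with them have no share of all genes beside them. With endothelial markers, members called were 6 in WT, 3 between genotypes at D7, 1 at D0 and 2 in the difference of the changes, and reversed estimates were Fabp4 at D7 (-0.14) and, at D0, Pparg (-0.031) and Cfd (-0.030). With leukocyte markers, 1 member was called at D0 and 23 and 15 other adipocyte genes after injury in WT and Trem2-/-, and reversed estimates were Cebpa in WT (0.10), Fabp4 (-0.031), Cebpa (0.048) and Cfd (-0.40) between genotypes at D7, and Cfd in the difference (-0.79).

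Deviations of same-numbered mice from their group means had r from -0.51 to 0.41 over 24 pairs, 11 of them over 0.1. Mice with unlike numbers had r from -0.63 to 0.71, and 6 of 16 libraries were closest to their own number. The labels do not say that a number pairs mice, and these values cannot settle it. A replicate block called 3 members in Trem2-/-, in place of 5, and moved no other count of calls by over 1.5 times.

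With 1 mouse left out, members called ranged from 2 to 5 in WT, 1 to 6 in Trem2-/-, 0 to 2 between genotypes at D0 and 0 to 1 in the difference. Other adipocyte genes ranged from 1 to 6 at D7, 1 to 9 at D0 and 3 to 11 in the difference. The share of all genes called with a mouse left out is not given here. Signs turned for Cebpa (-0.10 to 0.035) and Lpl (-0.35 to 0.014) in WT and Adipoq in Trem2-/- (-0.41 to 0.011). Between genotypes they turned at D7 for Fabp4 (-0.060 to 0.26), Lpl (-0.13 to 0.042) and Cd36 (-0.26 to 0.032), and at D0 for Pparg (-0.14 to 0.33), Cfd (-0.32 to 0.45) and Cd36 (-0.10 to 0.46). In the difference they turned for Fabp4 (-0.47 to 0.060), Cfd (-0.069 to 0.69) and Cd36 (-0.54 to 0.021). None of these estimates passed the test in the fit reported.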
